A study of Mus musculus with 16 samples.

Results

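The immunoglobulin heavy chain locus (Igh) was examined in thymocytes, cells of the T lineage that do not normally assemble a complete heavy chain gene. Its members were the ATAC-seq peaks on chromosome 12 that lay within the span of all annotated Ighv, Ighd and Ighj segments and the constant genes Ighm to Igha, plus 50 kb past Igha, chr12:113204830-116010093 in mm10. Peaks of the 4 stages that shared at least 1 bp were merged, which left 292 regions in the span of 185978 on chromosomes 1 to 19. ATAC-seq inserts adapters into accessible DNA with a transposase, so that reads pile up where chromatin is open. All samples came from wild-type C57BL/6J mice of 9 weeks, and 4 mice gave 1 library for each of 4 sorted stages, 16 libraries in all. The stages were CD4-CD8-CD3- double negative (DN) cells, CD4+CD8+ double positive (DP) cells, and CD3+ CD4 (SP4) and CD8 (SP8) single positive cells. Per the study's methods, cells that stained for lineage markers that included TER119, B220, Mac1, Gr1, CD11c, NK1.1 and the γδ T cell receptor were gated out of the sorts. The 4 mice of a stage were pooled before peaks were called, so each stage is 1 list with no spread between mice, and differences between stages are described without a test. Values said to run from DN to SP8 are in the order DN, DP, SP4, SP8.

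B cells build a heavy chain gene by joining a D to a J segment and then a V segment to the joined DJ, and both steps use the RAG recombinase, which thymocytes also express. RAG cuts at the recombination signal beside each segment, a conserved heptamer, a spacer and a nonamer, and it needs that signal in open chromatin. D to J joins of Igh are known in a part of thymocytes, whereas V joins are largely kept to the B lineage. The intronic enhancer Eµ lies between the J segments and Ighm, the 3′ regulatory region lies past Igha, and CTCF-bound elements flank the D segments and the 3′ end of the locus. The largest V family is Ighv1 (J558), which lies toward the end of the V part far from the D segments.

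Most of the tallest peaks of the locus had their summit within 100 bp of the 3′ end of a V segment. The recombination signal begins at that end. A short sequence inside its spacer was found at 31 of the 35 V segments whose peak passed the 95th percentile of fold enrichment. The signals of the 4 Ighv14 segments are shown first because their DNA is nearly identical. Each is given 5′ to 3′ for the 39 bp directly past the V segment, on the minus strand of GRCm38.p6 (mm10, RefSeq sequence), with the 9 letters ACCACATCC or their counterpart in capitals. They lie at chr12:113994430-113994468 (Ighv14-2), chr12:114059806-114059844 (Ighv14-3), chr12:114176399-114176437 (Ighv14-4) and chr12:113931914-113931952 (Ighv14-1).
Ighv14-2: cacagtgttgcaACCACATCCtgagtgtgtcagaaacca
Ighv14-3: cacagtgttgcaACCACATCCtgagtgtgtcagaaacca
Ighv14-4: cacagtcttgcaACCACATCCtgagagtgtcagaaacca
Ighv14-1: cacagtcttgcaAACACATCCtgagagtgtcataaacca
The first 3 of these segments had a peak at all 4 stages, with a fold enrichment over the local background of 22.7 to 40.1. Ighv14-1, the fourth, had no peak at any stage. Within the 9 letters it carries the substitution C2A, with positions counted from 1 at the first letter of ACCACATCC and the common base given first. This is not its sole difference from the Ighv14-4 signal, since the printed windows also differ once near their end, outside the 9 letters. The letters ACCACA are the core sequence that RUNX factors bind, TGTGGT on the other strand, and the whole reads GGATGTGGT there, with the GGA core of ETS factor sites at its start. This sequence was picked out after the peak heights had been seen.

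Signals from other families and the exceptions are given for comparison, again 5′ to 3′ on the minus strand with the same letters in capitals where they occur. Ighv1-82 (chr12:115952499-115952537) and Ighv9-4 (chr12:114299922-114299960) are functional V genes with tall peaks. Ighv1-55 (chr12:115208056-115208094) holds the letters and had no peak, and Ighv1-43 (chr12:114945911-114945949) carries C2A,T7C and had none. Ighv15-2 (chr12:114564539-114564577) lacks the letters and had a tall peak, and Ighv5-2 (chr12:113578465-113578503) is one of the segments nearest the D segments.
Ighv1-82: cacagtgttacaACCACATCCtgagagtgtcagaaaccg
Ighv9-4: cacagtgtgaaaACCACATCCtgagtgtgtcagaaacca
Ighv1-55: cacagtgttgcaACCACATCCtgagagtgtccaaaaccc
Ighv1-43: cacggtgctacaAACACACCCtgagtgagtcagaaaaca
Ighv15-2: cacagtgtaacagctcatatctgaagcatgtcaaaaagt
Ighv5-2: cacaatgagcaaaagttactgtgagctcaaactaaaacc
In the signals shown with the letters they begin at position 13 of the window, which places them within the spacer and outside the heptamer and nonamer that RAG contacts.

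The span held 235, 189, 182 and 196 peaks from DN to SP8. These were 0.157% of the 150139 DN peaks (exact 95% binomial interval 0.137 to 0.178), 0.176% of the DP peaks (0.152 to 0.203), 0.158% of the SP4 peaks (0.136 to 0.183) and 0.188% of the SP8 peaks (0.162 to 0.216). Intervals here cover counting error only. The shares overlapped between stages, so the larger number at DN went with the longer DN list. Of the 292 regions, 226 (77.4%) were called at DN, against 75.7% of all merged regions. The DP list called 184 (63%) against 53.9%, the SP4 list 174 (59.6%) against 58.3%, and the SP8 list 191 (65.4%) against 53.0%. The locus was therefore near the background at DN and SP4 and above it at DP and SP8. At all 4 stages 121 regions (41.4%) were called, against 34.1% of all. DN alone held 46 regions (15.8% against 21.7%), DP alone 15 (5.14% against 5.17%), SP4 alone 12 (4.11% against 7.39%) and SP8 alone 17 (5.82% against 4.21%). DN did not hold the most with lists of equal numbers of peaks, where DN alone had 18 regions, DP alone 21, SP4 alone 10 and SP8 alone 20.

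**Figure D1:**
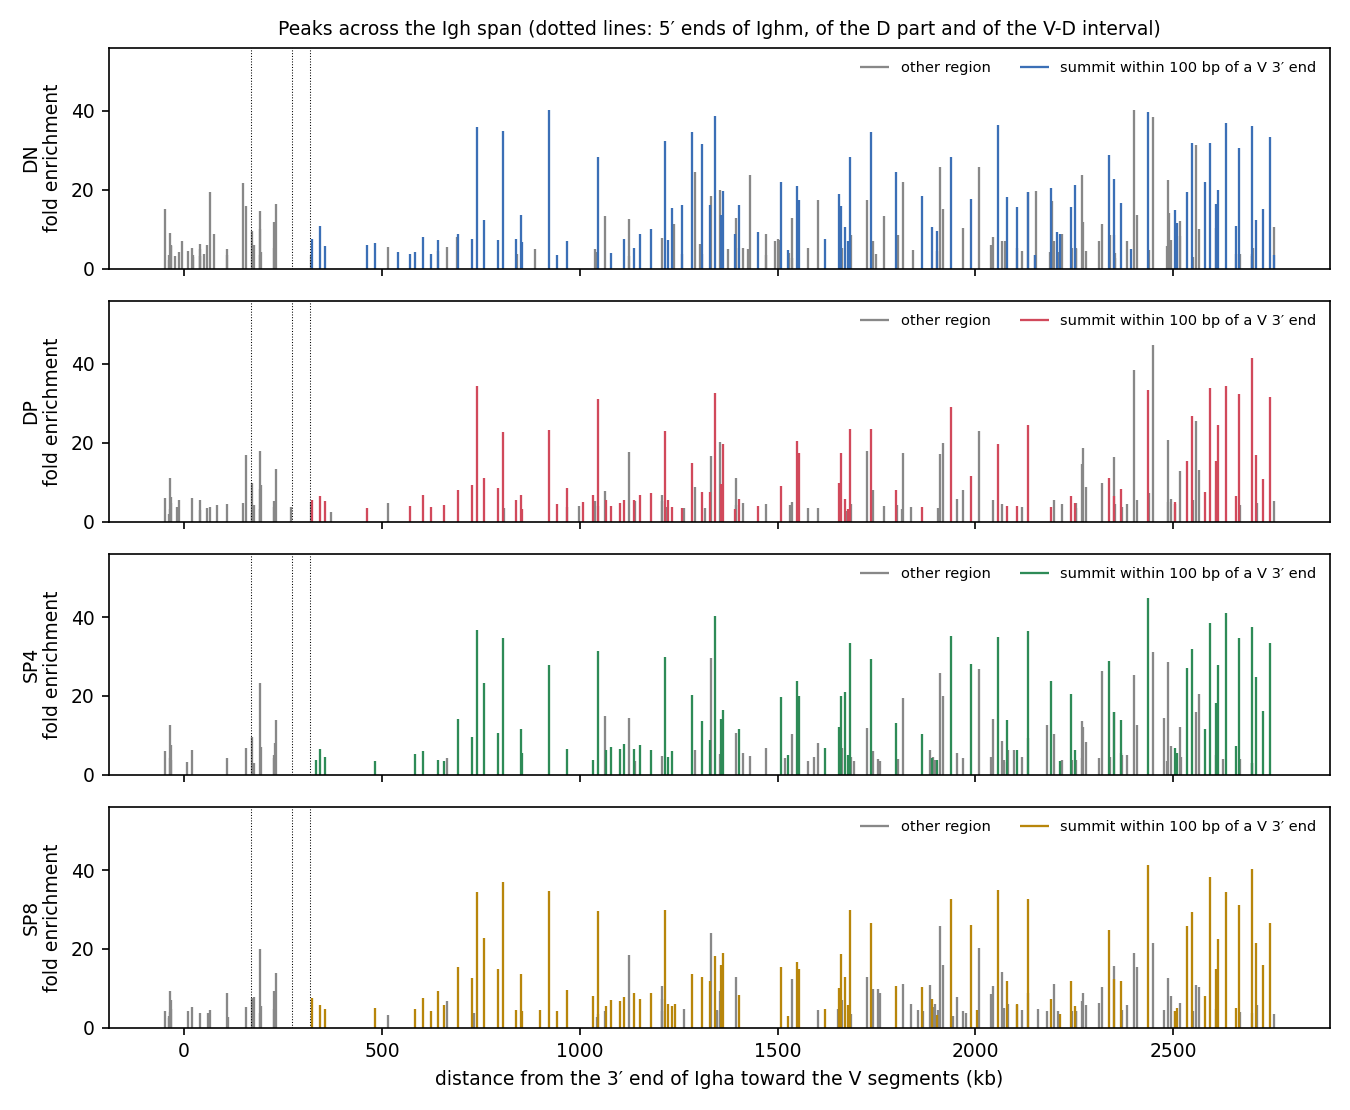
Fold enrichment over the local background (vertical axis) of each Igh peak against the distance from the 3′ end of Igha in kb (horizontal axis), with 1 panel per stage. Coloured lines are regions with the summit within 100 bp of the 3′ end of a V segment and grey lines are all others. The tall lines, up to 44.9, stand in the V part at every stage, and no line stands between the D segments and the first V segment.

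Peaks were spread unevenly over the locus. The V part (2437 kb) held 249 regions, and 105 were called at all 4 stages. The 44.87 kb between the D part and the first V segment held 0 regions, as did the 1.32 kb of the J segments. The D part held 10 regions, 7 of them at all 4 stages, the J-Ighm intron 2, the constant part 20 and the 3′ flank 11. In the V part and the D part the density was 10.2 regions per 100 kb in each. In the constant part 12 of the 20 regions were called at 1 stage only and 3 at all 4.

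The height of a peak was read in 2 ways, and they ranked the locus differently. By fold enrichment over the local background the median Igh peak stood at percentile 66.8 of the DN list, 51.0 of the DP list, 58.2 of the SP4 list and 57.8 of the SP8 list. By the number of reads at the summit, recovered from the deposited p-value and fold enrichment, it stood at 50.4, 34.6, 45.7 and 40.6. Fold enrichment is measured against the surroundings, and for 47.2% (DN) to 60.7% (SP8) of the Igh peaks these were at the genome-wide background. Across the whole lists this held for 26.02% (SP8) to 27.9% (SP4) of peaks. Above the 99th percentile of fold enrichment lay 20, 12, 16 and 11 Igh peaks from DN to SP8, and every one was in the V part.

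Among the 196 V segments, 111 (56.6%, exact 95% binomial interval 49.4 to 63.7) had a peak at the gene body or within the 39 bp of the recombination signal at 1 stage or more. From DN to SP8 the number was 101, 89, 86 and 94, and 70 segments had a peak at all 4 stages. Functional V genes had a peak in 86 of 113 cases and V pseudogenes in 24 of 81. By family, 58 of 93 Ighv1 segments had one, 10 of 16 Ighv8, 7 of 22 Ighv5, 7 of 11 Ighv2, 4 of 8 Ighv3, 3 of 7 Ighv6, 3 of 4 Ighv14, and all 4 Ighv9 and all 4 Ighv7 segments. Among families with 3 or more such segments, Ighv14 and Ighv1 had the highest medians of the highest percentile, 99.9 and 94.0. The 1 Ighv15 segment with a peak, Ighv15-2, stood at 99.6.

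Summits clustered at the 3′ end of the segments, where the signal lies, and not at the 5′ end, where V promoters lie. Of the 249 V part regions, 99 had their summit within 100 bp of a V 3′ end. They made up 67 of the 105 regions called at all 4 stages and 21 of the 24 above the 99th percentile. In the 300 bp before the 5′ ends, which form 2.36% of the sequence, 3 regions (1.2%) had their summit. The 300 bp past the 3′ ends form 2.39% of the sequence and held 61 regions (24.5%), and the gene bodies, 3.41% of the sequence, held another 61. The remaining 124 regions (49.8%) lay elsewhere, in 91.8% of the sequence.

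From the D-near end, 4 equal lengths of the V part held 34, 68, 68 and 79 regions. The length farthest from the D segments held 21 of the 45 regions above the 95th percentile, and 29 of its 38 segments had a peak. In the nearest length 28 of 61 segments had a peak and 4 regions passed the 95th percentile. Of the 3 V segments nearest the D segments, the pseudogene Ighv5-1 had no peak, and the pseudogene Ighv2-1 had fold enrichments of 3.55 at DN and 4.91 at DP and no peak in the SP lists. Ighv5-2, known from early B cells as the most often used V gene (VH81X), had no peak at SP4 and fold enrichments of 7.54, 5.38 and 7.64 in the DN, DP and SP8 lists.

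The 12 V segments with the highest percentile at any stage had peaks at all 4 stages, and each holds the 9 letters. They were Ighv14-4, Ighv1-10, Ighv1-70, Ighv1-82, Ighv14-2, Ighv1-58, Ighv1-76, Ighv1-79, Ighv14-3, Ighv1-7, Ighv1-47 and Ighv1-62-1. Of these Ighv1-10, Ighv1-70 and Ighv1-79 are pseudogenes, so a tall peak did not require a usable gene. Ighv1-82 (chr12:115952538-115953005) had a fold enrichment of 36.1, 41.4, 37.4 and 40.2 from DN to SP8, with 373, 392, 476 and 458 summit reads. The 4 stages were close to each other at this segment.
Ighv14-4 (chr12:114176438-114176867) had a fold enrichment of 40.1, 23.2, 27.9 and 34.6 with 268, 107, 146 and 266 summit reads. Ighv1-7 (chr12:114538495-114538965) had 34.6, 15, 20.1 and 13.7 with 171, 63, 84 and 62 reads. At Ighv1-7 DN stood above the other stages, and at Ighv14-4 DP was the lowest. The pseudogene Ighv1-70 (chr12:115691889-115692322) had 39.8, 33.3, 44.9 and 41.3 with 295, 327, 459 and 355 reads, with SP4 highest.

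Of the 62 V segments with the 9 letters in the 39 bp past the segment, 61 (98.4%, exact 95% binomial interval 91.3 to 100) had a peak, and 51 had one at all 4 stages. Of the 134 segments without them, 50 (37.3%, 29.1 to 46.1) had a peak and 19 had one at all 4 stages. Among segments with a peak, 31 of 61 with the letters passed the 95th percentile at some stage, against 4 of 50 without. Those 4 were Ighv4-2, Ighv15-2, Ighv8-6 and Ighv1-56. V segments share long stretches of sequence with their family, so they are not independent cases, and no test was made.

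Signals with 1 or 2 of the 9 letters changed had fewer peaks than signals that differed more. With 1 letter changed 3 of 26 segments (11.5%, 2.45 to 30.2) had a peak, with 2 changed 0 of 10 (up to 30.8%), and with 3 or more changed 47 of 98 (48.0%, 37.8 to 58.3). The first 2 groups are nearly all Ighv1 segments, whereas the last holds mostly the other families. The most frequent single change, C2A with no other, was found in 12 segments, of which the pseudogene Ighv1-86 had a peak. The tallest DN peak of Ighv1-86 lay 405 bp inside the segment, and a separate merged region at chr12:116009610-116009764 covered its signal. Ighv1-25, a segment with C9T, had a peak too. As the only change, C5T was found in Ighv1-30 and Ighv1-56. Ighv1-56 had peaks at all 4 stages, with the summit 22 bp inside its 3′ end at DN, SP4 and SP8. Of the segments with A6C, C8A, T7A or T7G as the only change, 2 of each, none had a peak.

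The counts were also taken within families. In Ighv1, 39 of 40 functional genes with the letters had a peak and 1 of 13 without them. Among Ighv1 pseudogenes it was 15 of 15 against 2 of 24. All 3 Ighv14 and all 4 Ighv9 functional genes with the letters had a peak. The Ighv9 peaks were mostly not tall, with a median highest percentile of 62.1 and 1 of the 4 above the 95th. In the functional genes of other families, which lack the letters, 39 of 52 had a peak, but their median highest percentile was 63.1, against 95.8 for the functional genes with the letters. Because only uniquely mapped reads were kept, the share of 75-base sequences at each segment that occur once in the genome was computed. With segments of at least 50% unique sequence the counts were 55 of 56 and 50 of 132. Ighv1-55, the segment with the letters and no peak, was 77.3% unique.

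**Figure D2:**
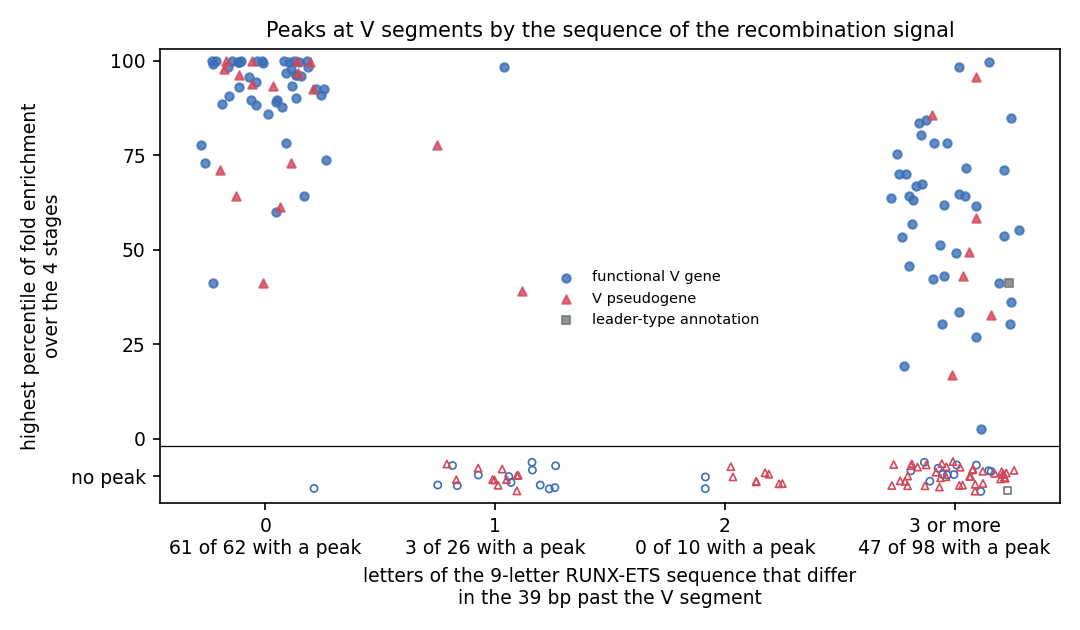
Highest percentile of fold enrichment over the 4 stages (vertical axis) of each of 196 V segments, by the number of the 9 letters that differ in the 39 bp past the segment (horizontal axis). Filled points have a peak, open points in the lowest band have none, and shapes give the gene type. With 0 letters changed 61 of 62 points are filled, with 1 or 2 changed 3 of 36 are, and with 3 or more changed 47 of 98 are, most of them below percentile 95.

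The summits of segments with the letters lay near the 3′ end, and the median was inside the segment, outside the signal. At segments with the letters the median summit was 21, 21, 20.5 and 20 bp inside the 3′ end from DN to SP8, and 82.0% of DN summits were within 50 bp of the end. At segments without them the median summit lay 58.5, 51, 54 and 55 bp past the end, which is beyond the 39 bp of the signal. Among segments with a peak at all 4 stages, the median summit read number over the genome-wide background was 47.9-, 25.3-, 39.5- and 27.1-fold from DN to SP8 with the letters (51 segments). Without them it was 9.97-, 8.55-, 9.63- and 12-fold (19 segments).

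Elsewhere in the genome the 9 letters were a weaker guide. They occur 23779 times on chromosomes 1 to 19, counting both strands, and 2606 of these sites (11.0%) lie in a merged region. In the 300 bp around the summit the 9 letters were found in 1.31% of all regions and in 58 of the 99 regions at V 3′ ends (58.6%). The RUNX letters TGTGGT, which the 9 letters contain, were found in 69.7% of the regions at V 3′ ends against 31.5% of all, and the heptamer CACAGTG in 76.8% against 11.1%. The ETS letters GGAAGT were found in 21.2% against 28.9%, but the GGATGT of the 9 letters does not match them and was not counted. The E-box letters CAGCTG or CAGGTG, which E proteins bind, were found in 10.1% against 45.1%. The heptamer and the 9 letters lie side by side in the signal, so their shares are not separate observations. Regions at V 3′ ends were chosen by their distance to the signal, so their windows reach it by design. A higher heptamer share there than over all regions was therefore fixed in advance. Of the 196 V segments, 106 have the exact heptamer in their signal, 72 the RUNX letters and 62 the 9 letters.

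A second kind of V part region lay between the segments, and the 2 tallest were higher at DN and DP than at the SP stages. They lay at chr12:115655443-115656310, 7518 bp before the 5′ end of Ighv8-12, and at chr12:115703580-115704182, 11508 bp before Ighv1-70. The first had 430 (exact 95% Poisson interval 390 to 473), 436 (396 to 479), 122 (101 to 146) and 86 (68.8 to 106) summit reads from DN to SP8. The second had 318, 477, 130 and 98 reads. In both, the DN and DP lists stood well above the SP4 and SP8 lists. In reads over background, the mean of DN and DP was 4.13 and 3.49 times the mean of SP4 and SP8 at these regions, a ratio chosen after the values were seen. The 200 bp around each summit are shown because the 2 regions share runs of sequence with each other, on the minus strand at chr12:115655805-115656004 and chr12:115703730-115703929, with capitals for E-box and, in the first, ETS letters.
before Ighv8-12: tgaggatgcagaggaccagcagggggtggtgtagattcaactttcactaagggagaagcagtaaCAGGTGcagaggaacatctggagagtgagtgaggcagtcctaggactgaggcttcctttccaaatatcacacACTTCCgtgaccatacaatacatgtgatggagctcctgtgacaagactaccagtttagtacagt
before Ighv1-70: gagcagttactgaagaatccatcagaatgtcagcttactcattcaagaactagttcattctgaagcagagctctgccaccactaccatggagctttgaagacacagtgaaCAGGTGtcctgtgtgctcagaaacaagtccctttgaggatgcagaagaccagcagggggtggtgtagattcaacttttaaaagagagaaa
Their longest shared run was 49 bp.

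Another 5 of the leading regions away from V segments belonged to the same sequence family. They lay 3688 bp before Ighv8-5, 4237 bp before Ighv8-7, 4430 bp before Ighv8-10, 6986 bp before Ighv8-11 and 3990 bp before Ighv8-14, and each shared a run of 31 to 112 bp with each of the 2 regions above. Sequences a few kb before Ighv8 segments are known from B lineage cells as PAIR elements, repeats bound by PAX5. Whether these 7 regions are those elements was not tested. At Ighv8-10 the summit reads were 199, 178, 57 and 30 from DN to SP8, and at Ighv8-14 they were 179, 123, 66 and 49. Both were higher at DN and DP than at SP4 and SP8, with ratios of 4.26 and 2.59. The regions before Ighv8-7 and Ighv8-5 had ratios of 1.31 and 1.35, and the region before Ighv8-11, with 50, 41, 110 and 46 reads, had 0.569. The family therefore did not share one order of stages.

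Over all 63364 regions called at all 4 stages with recovered reads the median ratio was 0.927, and 9.87% had a ratio of 2 or more. For the 67 such regions at V 3′ ends it was 0.958, with 2 at or above 2. The whole V part had a median of 0.982, and 9.52% of its 105 such regions were at or above 2, which is near the share of all regions. Away from V segments, 11 such regions lay within 12 kb before an Ighv8 segment, a limit set after the values were seen, with a median of 1.35 and 5 at or above 2. That count leaves out 4 regions at V segments in the same distance, with ratios of 0.611 to 1.2, and a region at 12031 bp with 0.741. The other 24 regions away from V segments had a median of 0.961, and 3 of them (12.5%) were at or above 2. Outside the family, the region at chr12:114609236-114609755, near Ighv1-11, had 227, 215, 29 and 77 reads from DN to SP8. The region at chr12:114587187-114587630, 3358 bp before Ighv1-9, went the other way, with 133, 101, 204 and 195 reads.

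**Figure D3:**
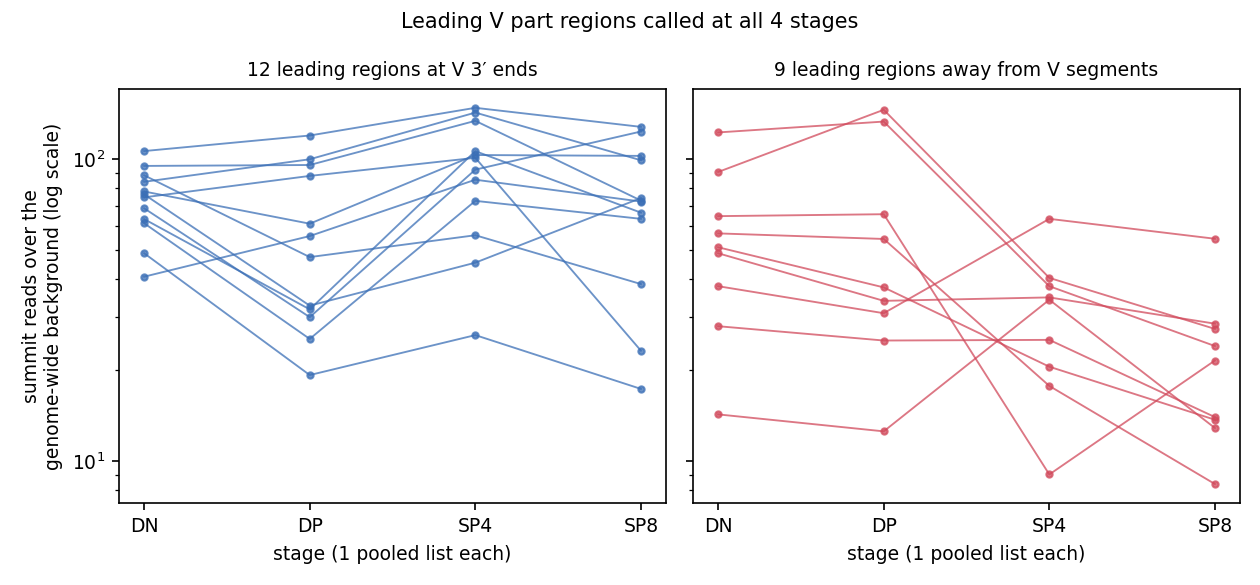
Summit reads over the genome-wide background (vertical axis, log scale) at DN, DP, SP4 and SP8 (horizontal axis) for leading V part regions called at all 4 stages, 1 line per region. All 12 regions at V 3′ ends (left) are higher at SP4 than at DP. Most of the 9 regions away from V segments (right) are higher at DN and DP, up to 146-fold at DP, than at SP8. These statements use different pairs of stages, and some of the left regions are also higher at DN than at SP8 while others are lower.

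The CTCF consensus, matched without mismatch on both strands, was found in 40 of the 249 V part regions (16.1%) against 4.85% of all regions. All 40 matches pointed the same way, on the strand of the locus. In the 3′ flank the 1 match pointed the other way, and in the constant part there was 1 match on each strand. CTCF, with cohesin, holds chromatin loops between sites that point at each other. The octamer ATGCAAAT, the sequence OCT factors bind in V promoters, was found in 10 V part regions (4.02%) against 1.35% of all, and 9 of these were away from V 3′ ends. A match is a description of the letters and no evidence of binding.

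In the D part, 2 of the 22 D segments had a peak, and these were Ighd4-1 (DQ52), nearest the J segments, and Ighd3-2. Each had a peak at all 4 stages. Ighd4-1 (chr12:113430528-113430538) had 62, 47, 19 and 69 summit reads from DN to SP8, with fold enrichments of 6.1, 4.11, 3.03 and 7.72. Ighd3-2 (chr12:113448214-113448229) had 31, 79, 50 and 88 reads, with 4.18, 9.35, 7.08 and 5.62. SP4 was lowest at Ighd4-1 and DN at Ighd3-2. The 2 segments are shown with the signal on each side, on the minus strand at chr12:113430500-113430566 and chr12:113448186-113448257, with the coding letters in capitals. Ighd1-1 (DFL16.1, chr12:113482142-113482220), a D segment far from the J segments that B cells use often, had no peak at the segment itself and is given beside them.
Ighd4-1: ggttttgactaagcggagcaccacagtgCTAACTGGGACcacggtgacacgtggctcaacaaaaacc
Ighd3-2: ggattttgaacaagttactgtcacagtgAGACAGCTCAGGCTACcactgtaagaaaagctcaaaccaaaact
Ighd1-1: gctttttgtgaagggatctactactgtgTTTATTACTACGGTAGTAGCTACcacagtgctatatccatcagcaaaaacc
Many D segments lie in repeated DNA. At the 20 without a peak, between 15.9% and 100% of their 75-base sequences were unique (median 80.8%), with 17 of 20 at 50% or more.

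The other regions of the D part flanked the segments. The tallest, at chr12:113446069-113446551, lay 1978 bp past the 3′ end of Ighd3-2 and had 73, 144, 159 and 307 summit reads from DN to SP8 (fold enrichments 9.95, 17.9, 23.2 and 20). Its neighbour at chr12:113447403-113447855 went in another order, with 110, 69 and 56 reads in the DN, DP and SP8 lists and no SP4 peak. The first held both RUNX and ETS letters, shown in capitals for the minus strand of chr12:113446136-113446335.
past Ighd3-2: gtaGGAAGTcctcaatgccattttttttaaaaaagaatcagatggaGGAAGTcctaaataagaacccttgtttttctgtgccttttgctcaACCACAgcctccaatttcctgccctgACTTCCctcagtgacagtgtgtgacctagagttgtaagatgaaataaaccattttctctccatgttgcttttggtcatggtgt
At Ighd1-1 a region with the summit 501 bp past the segment had 72, 28, 22 and 63 reads. On the other side of Ighd1-1, where the CTCF-bound insulator IGCR1 is known to lie in B cell precursors, summits were found 3145 and 5752 bp before the segment. The nearer had fold enrichments of 6.88, 5.3, 8.17 and 7.29, and the farther 16.4, 13.4, 14 and 14. The farther region changed least over the stages among the D part regions called at all 4, with 100, 95, 75 and 88 reads and overlapping intervals. The CTCF consensus was not found in the 300-bp windows of the 10 D part regions. Only matches without mismatch were counted, so a site that departs from the consensus by a letter would be missed.

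None of the 4 J segments had a peak at any stage, although all of their 75-base sequences were unique. The stretch without a region ran for 4620 bp, from the J-Ighm intron to the Ighd4-1 region, and it includes the position where Eµ is known to lie. In this stretch the octamer that marks Eµ was found 1083 bp past Ighj4. It is given because no peak was called over it, with octamer and E-box letters in capitals, on the minus strand of chr12:113427371-113427490.
octamer in the intron: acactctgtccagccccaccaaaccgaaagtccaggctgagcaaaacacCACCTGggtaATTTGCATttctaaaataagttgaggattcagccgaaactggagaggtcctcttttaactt
With the local background of the intron peak, a summit there would have needed 45, 58, 41 and 40 reads from DN to SP8 to be called. With the background at Ighd4-1 it would have needed 20, 22, 15 and 19. Signal below these limits was not detectable in the lists.

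The intron did hold a wide region nearer to Ighm, at chr12:113424150-113425619. It began 2895 bp past Ighj4 and ended 1420 bp before Ighm, over the repeats of the µ switch region, where class switch recombination joins Ighm to other constant genes in mature B cells. Its summit reads from DN to SP8 were 271 (240 to 305), 375 (338 to 415), 236 (207 to 268) and 182 (157 to 210). The DP interval lay above the other 3, and those of SP4 and SP8 overlapped. The repeats are visible in the 200 bp around the summit, with no capitals, on the minus strand of chr12:113425312-113425511.
µ switch region: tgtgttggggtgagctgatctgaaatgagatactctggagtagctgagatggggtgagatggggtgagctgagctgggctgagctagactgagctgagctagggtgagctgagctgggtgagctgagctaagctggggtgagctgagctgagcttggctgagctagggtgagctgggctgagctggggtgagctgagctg
In the region the switch pentamers GAGCT and GGGGT occurred 146 times per kb, against 41.3 per kb in the whole intron. Its fold enrichments were only 9.56, 9.82, 9.48 and 7.5, since its local background was at 7.82, 11.4, 7.46 and 6.54 times the genome-wide background. That local background is taken over 10 kb, and the 10 kb include the region itself. Of its 75-base sequences 92.8% were unique. Whether copies of the repeat that the assembly lacks add reads here was not tested. A DP-only region of 120 bp with 72 reads lay beside it.

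Among the 8 constant genes, Ighd, which encodes IgD, had a peak at all 4 stages and Ighg2b had 1 at DN, with 16 reads. Ighm, Ighg1, Ighg2c, Ighg3, Ighe and Igha had none. The Ighd region (chr12:113410477-113411143) had 88, 129, 28 and 23 reads from DN to SP8. DN and DP were clear of the SP stages there. The tallest region by percentile, at chr12:113402839-113403220, lay 3573 bp past the 3′ end of Ighd and had 125 reads at DN (104 to 149) and 19 at DP, and no peak at SP4 or SP8. A similar DN peak stood at chr12:113320974-113321622, 3994 bp past the 3′ end of Ighg1, with 139, 15 and 20 reads in the DN, DP and SP8 lists and no SP4 peak. Its summit window is shown with RUNX letters in capitals, on the minus strand of chr12:113321146-113321345.
past Ighg1: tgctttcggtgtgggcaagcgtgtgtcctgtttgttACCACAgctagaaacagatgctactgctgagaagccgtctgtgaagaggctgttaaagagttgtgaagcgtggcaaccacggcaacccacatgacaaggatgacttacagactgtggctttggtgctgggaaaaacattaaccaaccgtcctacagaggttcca
A DN-only region with 45 reads lay 771 bp before Ighg1, and a region 1326 bp before Ighg3 had 25, 24, 17 and 44 reads. The other constant part regions were low, with 13 to 42 reads. Over the whole span, 23 of 180 DN peaks in regions called at 2 or more stages were at least 2-fold above the highest other stage (12.8%), against 9.59% of all such DN peaks.

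The 3′ flank held a cluster of regions with many summit reads and few peaks near Igha. The cluster ran from 31934 to 38653 bp past Igha, where the CTCF-bound end of the 3′ regulatory region is known to lie. Its tallest region (chr12:113217761-113218231, 36824 bp past Igha) had 231 (202 to 263), 331 (296 to 369), 356 (320 to 395) and 298 (265 to 334) reads from DN to SP8. DN was the lowest stage, with an interval below those of the other 3. By fold enrichment over the local background the cluster was not tall, since its tallest region reached percentile 79.9 and the outermost region of the flank 88.0. The regions 34847, 34063 and 31934 bp past Igha were called at all 4 stages too, with 82 to 140, 175 to 246 and 114 to 163 reads. Those 38653 and 37370 bp past Igha were weaker, with 62 and 67 reads at DN and SP8, and with 47, 54 and 66 reads at DN, DP and SP8. The tallest region is shown with RUNX and ETS letters in capitals and the region with the CTCF match with that match in capitals, on the minus strand of chr12:113217906-113218105 and chr12:113219883-113220082.
tallest 3′ region: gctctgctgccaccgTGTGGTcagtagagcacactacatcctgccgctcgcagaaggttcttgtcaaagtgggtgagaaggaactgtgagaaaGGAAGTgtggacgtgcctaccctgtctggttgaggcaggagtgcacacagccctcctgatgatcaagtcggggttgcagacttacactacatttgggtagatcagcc
3′ region with CTCF match: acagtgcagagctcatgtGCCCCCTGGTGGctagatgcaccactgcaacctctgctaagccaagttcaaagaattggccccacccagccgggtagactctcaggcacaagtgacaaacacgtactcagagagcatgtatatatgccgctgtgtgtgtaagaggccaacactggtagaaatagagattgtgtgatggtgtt
Between the cluster and Igha, where the enhancers of the 3′ regulatory region act in B cells, the regions at 24004, 17988, 12144 and 5612 bp had 15 to 33 reads and were called at DN, DP or both. The outermost region, 49150 bp past Igha, had 75, 25, 24 and 18 reads from DN to SP8, and DN stood above the other stages.

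**Figure D4:**
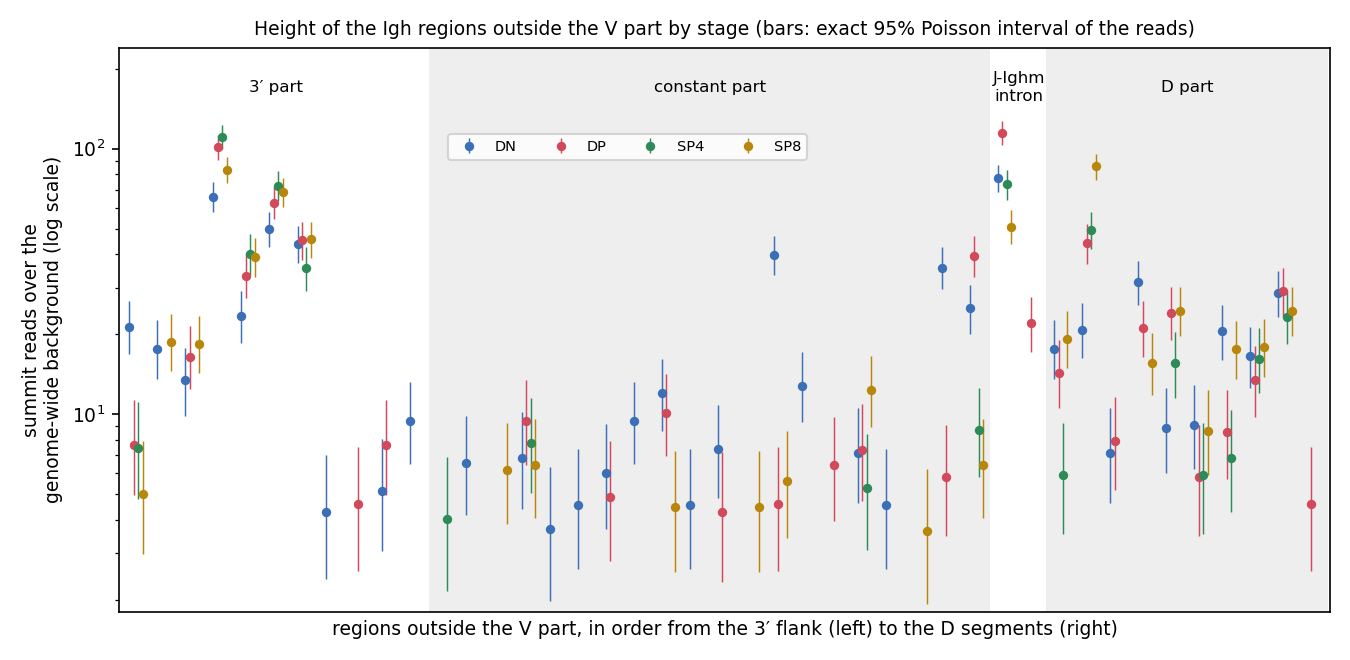
Summit reads over the genome-wide background (vertical axis, log scale) of the 43 regions outside the V part, in order from the 3′ flank to the D segments (horizontal axis), with 1 colour per stage. Points are single pooled lists and bars are exact 95% Poisson intervals of the reads. Most constant part points lie below 10-fold, whereas the 3′ cluster and the intron region reach 111-fold at SP4 and 115-fold at DP.

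Compared with the other antigen receptor loci, Igh was unlike the light chain locus Igk. Igk held 15 regions in 3.171 Mb (4.73 per Mb), and 0 of its 176 V segments had a peak, which allows a share of up to 2.07%. The share of unique sequence was computed for Igh alone, so loss of reads in repeated DNA at the other loci is not known. Igh held 104.1 regions per Mb, against 143.9 at Trb, 158.7 at Tra with Trd and 75.52 over the chromosomes. The share of V segments with a peak was 56.6% at Igh, 62.9% (44.9 to 78.5) at Trb and 55.9% (47.1 to 64.4) at Tra with Trd. The intervals of Igh, Trb and Tra with Trd overlapped widely, and that of Igk was apart from all 3.

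**Figure D5:**
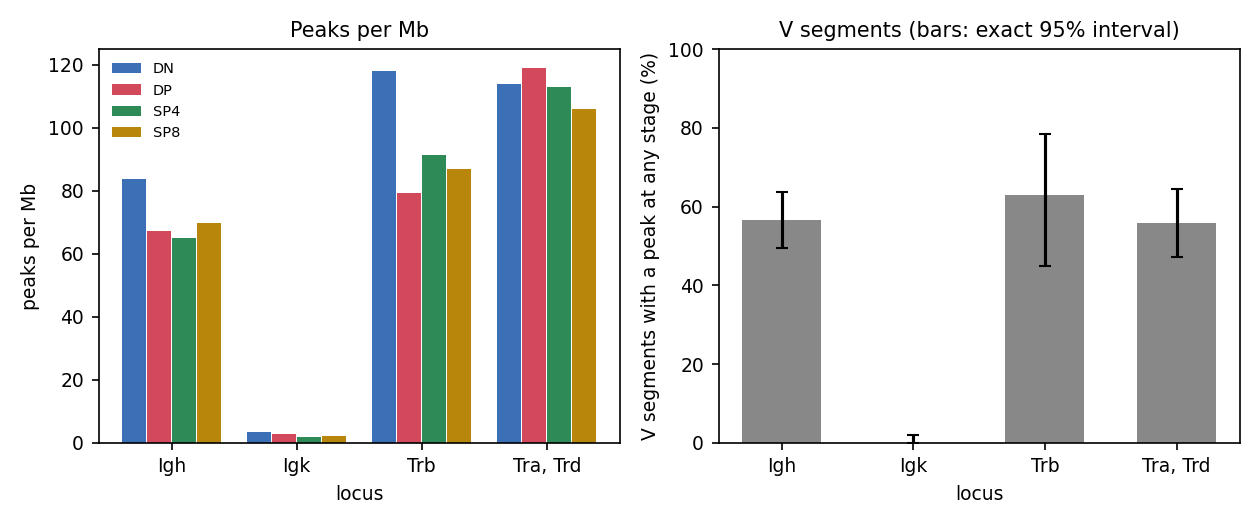
Peaks per Mb by stage (left) and the percentage of V segments with a peak at any stage with its exact 95% binomial interval (right) at 4 antigen receptor loci (horizontal axis). Igh bars reach 83.8 peaks per Mb at DN, the Igk bars stay at 3.47 or below, and Igk has 0% of V segments with a peak.

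Start sites of other cell types' genes were checked because B cells open this locus, with a gene counted where a peak lay within 500 bp of a start site. Of 12 B cell genes 9, 7, 8 and 8 were counted from DN to SP8. Cd79b, Pax5, Ebf1, Blk, Blnk, Vpreb1 and Cr2 were counted at every stage. Cd79a and Ms4a1 were among those with none at any stage. All 10 T lineage genes and all 6 coreceptor and DN genes were counted at every stage. Counts in the same order were 7, 7, 5 and 6 of 9 for plasmacytoid dendritic cells, 9, 6, 6 and 6 of 10 for myeloid cells, 6, 3, 3 and 5 of 8 for natural killer and innate lymphoid cells and 1, 0, 0 and 0 of 6 for controls of other tissues. Of 26 genes of V(D)J recombination and its control, 26, 25, 24 and 24 were counted. Rag1 and Rag2 were counted at all 4 stages, and Dntt, which adds bases at the joins, at DN and DP only. The share over all annotated genes is not given beside these counts, so they cannot be read as an excess or a lack. Whether cells of another type add to the Igh peaks was not tested.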

How the data were processed

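Per the labels and the study's methods, ATAC-seq libraries of 4 mice per stage were aligned to mm10 by the authors, down-sampled where they exceeded the median library depth, pooled by stage and used for peak calling with MACS2 at an FDR of 5%. Each deposited list gives a position, a summit, the score of the caller, the fold enrichment over the local background, the −log10 p-value and the −log10 q-value of each peak, as the authors deposited them. The lists hold no read totals, so depth is not known from the files. The study's methods give a range of pooled reads over the stages, without the value of each stage. Summit reads were recovered as the whole number (tolerance 0.001) that fits both the fold enrichment and the p-value, which worked for 99.99713% (SP8) to 100.0% (SP4) of peaks and for 802 of 802 in the span. The genome-wide background was 3.509 (DN), 3.275 (DP), 3.219 (SP4) and 3.582 (SP8) reads. Pooling hides the spread between mice, and a region without a peak may hold signal under the threshold. Only uniquely mapped reads were kept, so repeated segments can lose signal (84.0% of 75-base sequences in the V part were unique).

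Peaks were merged where they shared 1 bp. Segments came from GENCODE M21 and sequences from RefSeq GRCm38.p6. Percentiles of fold enrichment were taken within each list. Motifs were matched without mismatch, on both strands, in 300 bp around summits. All D and J segments were counted. Named were the D segments with a peak, all constant segments and the 12 V segments with the highest percentile. The 3 V segments nearest the D segments were named too. Up to 6 regions per part and all regions of the intron and the 3′ flank were given. Others were chosen after their values were seen. The region and the gene lists were chosen with earlier results of these data known. Alternatives were q-value limits, equal list lengths, summits in place of overlaps and leaving out the 50 kb flank. Python 3.11.15, pandas 2.3.3 and scipy 1.17.1 were used, and the scripts were tested on simulated data. The value of 1 marker gene is not reported here.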

Additional observations from a re-analysis of the deposited data

How the results depend on the processing

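No paired analysis was possible because the 4 mice of each stage were pooled before peak calling, and leaving out a replicate was not possible for the same reason. Of 114 alternative values, 107 stayed within 1.5 times the main count or within the interval of the share, and 7 did not. With lists cut to equal numbers of peaks, 18 regions were called at DN only, fewer than the 21 at DP only and the 20 at SP8 only, and the constant part held 13. With a −log10 q-value of at least 5, DP alone held 8 regions, the intron 1 and the constant part 12. With the summit in place of the overlap, DP alone held 23 regions and SP4 alone 19. The counts at V segments and the shares with and without the 9 letters did not move. The choice of the 9 letters, of the ratio of DN and DP to SP4 and SP8 and of the 50% limit on unique sequence was made after the data were seen.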
